A study of Rattus norvegicus with 6 samples.

Results

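Of the 2289440 tiles of 1 kb on chr1 to chr20 that hold a listed CpG, 126402 (5.52%) had middle CpG density: 20 to 29 CpG positions listed in any of the 6 files, and at least 50 reads over these CpGs in every animal. The members made up 8.89% of the 1421817 tiles that met the read minimum, and 127767 tiles had 20 to 29 CpGs at any depth. Reads are summed over CpGs throughout, so a sequencing read that covers several CpGs counts at each of them. No methylation value entered this choice. The data were whole-genome bisulfite sequencing (WGBS) of hippocampi from pups of CD1 Sprague-Dawley rats at postnatal day 15, with 3 iron-deficient and 3 iron-sufficient pups. Dams of the iron-deficient group were fed 4 ppm iron from gestational day 2 to postnatal day 7 and 200 ppm afterwards, and dams of the iron-sufficient group were fed 200 ppm throughout, so both groups were on the 200 ppm diet when sampled. The paper states, citing earlier work, that the hippocampus was iron-deficient at postnatal day 15 under this regimen. The comparison asked whether early iron deficiency altered DNA methylation in the hippocampus. The labels do not say whether pups shared a litter, and the p-values measure the spread between these 6 samples. Whole hippocampus holds many cell types, so a methylation level between 0% and 100% cannot tell a difference between cells from one between the alleles of a cell. Methylation carries no marker expression, and the labelled tissue was not checked against markers.

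In mammalian DNA most CpGs are methylated, and dense clusters of CpGs, the CpG islands found at many gene starts, are the main exception. Proteins with a CXXC domain bind unmethylated CpG clusters and help keep them free of methylation, while DNMT3A and DNMT3B add methylation elsewhere. TET enzymes, which need iron, oxidise 5-methylcytosine. Stretches of intermediate CpG density include island shores, weaker promoters and many tissue-specific elements.

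The promoters shown here were chosen because their gene starts lie in members and span the range of methylation described later, from nearly none to nearly full, and because the start tiles of Ntf3 and Vamp8 separated by diet. Each is the 250 bases before the gene start, 5′ to 3′ on the gene's strand, from RefSeq (build GRCr8), with every CpG in capitals. The positions are where the same spacing of CpGs was found among the rn4 positions of the files, as the files count them. The match shows the CpG pattern, not that every other base is the same in rn4.
Dlg4, postsynaptic scaffold, chr10:56864209-56864458, + strand: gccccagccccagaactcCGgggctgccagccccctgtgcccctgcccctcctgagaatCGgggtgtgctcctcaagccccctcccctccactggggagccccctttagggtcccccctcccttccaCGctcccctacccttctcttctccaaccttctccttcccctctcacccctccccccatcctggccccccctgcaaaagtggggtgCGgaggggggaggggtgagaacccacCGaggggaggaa
Tet1, iron-dependent 5-methylcytosine dioxygenase, chr20:25185699-25185948, - strand: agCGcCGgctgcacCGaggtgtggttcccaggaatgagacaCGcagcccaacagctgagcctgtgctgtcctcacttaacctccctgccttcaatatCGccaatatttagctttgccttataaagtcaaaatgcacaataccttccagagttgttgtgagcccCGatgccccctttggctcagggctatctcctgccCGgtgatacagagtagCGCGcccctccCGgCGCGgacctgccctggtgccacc
Tf, transferrin, chr8:108244488-108244737, - strand: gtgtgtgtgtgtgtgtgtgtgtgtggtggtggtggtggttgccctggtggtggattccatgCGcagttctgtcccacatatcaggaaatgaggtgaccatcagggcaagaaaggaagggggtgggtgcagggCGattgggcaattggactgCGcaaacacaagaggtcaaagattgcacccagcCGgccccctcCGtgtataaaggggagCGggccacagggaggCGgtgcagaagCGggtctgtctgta
Ddx4, germ cell RNA helicase, chr2:44022927-44023176, - strand: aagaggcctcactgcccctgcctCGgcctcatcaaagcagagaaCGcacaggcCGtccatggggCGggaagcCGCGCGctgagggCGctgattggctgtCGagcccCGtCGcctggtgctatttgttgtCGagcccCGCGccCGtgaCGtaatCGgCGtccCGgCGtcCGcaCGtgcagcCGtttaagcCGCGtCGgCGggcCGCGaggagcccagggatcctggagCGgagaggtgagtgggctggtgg
Ntf3, neurotrophin, chr4:162506963-162507212, - strand: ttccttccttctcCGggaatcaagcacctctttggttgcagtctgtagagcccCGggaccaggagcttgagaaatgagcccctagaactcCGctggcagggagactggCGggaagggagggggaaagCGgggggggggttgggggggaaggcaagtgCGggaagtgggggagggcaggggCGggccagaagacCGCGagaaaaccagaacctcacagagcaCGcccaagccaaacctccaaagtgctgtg
Vamp8, vesicle SNARE protein, chr4:105697237-105697486, - strand: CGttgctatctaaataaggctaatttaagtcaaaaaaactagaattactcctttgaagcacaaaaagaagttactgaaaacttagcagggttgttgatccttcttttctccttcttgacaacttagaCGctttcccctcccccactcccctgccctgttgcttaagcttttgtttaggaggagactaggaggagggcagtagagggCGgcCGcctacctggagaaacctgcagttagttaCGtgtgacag
The Ddx4 stretch has 30 CpGs and a GC content of 69.2%, and the Vamp8 stretch has 5 CpGs and a GC content of 45.2%. Dlg4 has 5 CpGs, Tf has 8, Ntf3 has 10 and Tet1 has 12. The stretches of Ddx4 and Ntf3 lie mostly in the tile next to the member that holds the gene start, and the other 4 lie within the member.

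Members were mostly methylated, but a broad minority was not. The methylation level of a tile, methylated reads as a percentage of all reads over its CpGs, averaged 70.9% ± 0.53 over the members (SD over the 6 animals), and the median member lay at 79.4%. By the mean of the 6 animals, 7098 members (5.62%) were under 20%, 58054 (45.9%) were from 20% to 80%, and 61250 (48.5%) were over 80%. The fullest class of 10 percentage points was 80% to 90%, with 42239 members, and the emptiest was 0% to 10%, with 3115. Every class from 10% to 50% held between 3983 and 5920 members. Within the members from 20% to 80%, 56.9% of single CpGs with at least 10 reads in every animal were themselves from 20% to 80%, 28.6% were over 80% and 14.5% were under 20%. In members under 20%, 88.5% of such CpGs were under 20%, and in members over 80%, 79.9% were over 80%.

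**Figure D1:**
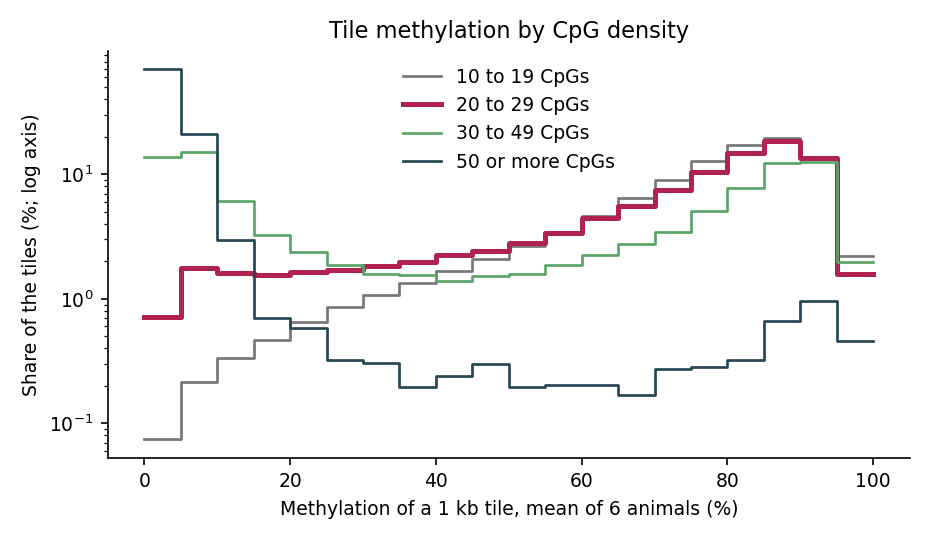
Share of 1 kb tiles (%, log axis) in each 5-point class of methylation (x axis, mean of 6 animals, %) for 4 classes of CpG density. Tiles of 20 to 29 CpGs follow those of 10 to 19 at high methylation and hold more tiles under 20%, while 94.3% of tiles with 50 or more CpGs lie under 20%.

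The members stood between sparser and denser tiles in every animal. Their mean differed by -5.05 percentage points from that of the 659647 tiles with 10 to 19 CpGs (75.9% ± 0.60, SD over 6 animals), with differences from -5.14 to -4.86 in single animals. It was 35.1 points above that of the 37604 tiles with 30 or more CpGs (35.8% ± 0.35), with differences from 34.6 to 35.4, and 47.7 points above with all reads of each class pooled. Both differences gave an exact sign-flip permutation p of 0.031 (two-sided, 6 animals, the smallest p this test allows) and 0.0341 after Benjamini-Hochberg adjustment over 12 tests, of which 2 were on reads per CpG and are not used as tests. The share of members under 20% was 4.49 points higher than in tiles of 10 to 19 CpGs and differed by -49.1 points from that in tiles of 30 or more, again in all 6 animals and with the same exact p. The share from 20% to 80% lay 24.9 points above that of tiles of 30 or more CpGs, and its difference from that of tiles of 10 to 19 was -0.615, with single animals from -1.35 to -0.0425. That last difference was -1.81 with 200 reads in every animal (exact adjusted p = 0.0341) and lost its call without tiles over 3 times the median coverage (adjusted p = 0.063, exact sign-flip). Single CpGs of a member differed from each other about as much as those of sparser tiles. The median SD between CpGs was 24.0 ± 4.27 percentage points (SD, n = 6) in members and 24.1 ± 4.34 in tiles of 10 to 19 CpGs, a difference of -0.125 that did not pass the exact test (p = 0.063). It was -0.237 with 200 reads in every animal, and -0.160 with tiles shifted by 500 nucleotides, where it passed (exact adjusted p = 0.031). In tiles of 30 or more CpGs it was 12.1 ± 2.06, lower in all 6 animals (exact p = 0.031). These medians are over tiles with at least 5 CpGs of 10 or more reads in every animal, 71672 of them members. Of all tiles of 30 or more CpGs, 55.8% were under 20% by the mean of the animals, where a bounded scale allows only a small SD. The SDs between CpGs were not compared within methylation classes. Between the diets, the exact permutation test of these 12 differences gave a lowest p of 0.2 (adjusted 0.8), where this test cannot go below 0.1 with 3 against 3 and so does not show that the diets were alike.

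Within the limits of the rule, mean methylation was lower with each added CpG, as a description over tiles. Members with 20 CpGs averaged 72.8%, those with 24 averaged 70.4% and those with 29 averaged 65.2%. Just outside, tiles of 19 CpGs averaged 73.3% and tiles of 30 averaged 63.5%, each close to the members next to it. The share of members under 20% was 2.91% at 20 CpGs and 14.3% at 29. The median member moved little, from 79.6% to 77.8%, and the share over 80% was 48.8% at 20 CpGs and 46.1% at 29.

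The CpG content of the surroundings, which the rule did not use, also went with methylation. Where both neighbouring tiles had under 10 CpGs, the 9349 members averaged 78.0% and 2.41% were under 20%. With a neighbour of 30 to 49 CpGs, 10401 members averaged 63.4% and 13.95% were under 20%. Beside a neighbour of 50 or more, 4048 members averaged 28.2%, 52.6% were under 20% and 5.95% were over 80%. The animals differed little in this, with means from 27.6% to 29.3% beside the densest neighbours. Clustering inside the member went with more members of low methylation, but up to 14 CpGs in 200 nucleotides also with more of high methylation. The share over 80% was 45.4% with at most 7 CpGs in any 200 nucleotides and 52.5% with 12 to 14, and the median was 78.2% and 81.2%. Of members with at most 7 CpGs in any 200 nucleotides, 2.23% were under 20%, compared with 37.0% of the 311 members with 20 or more.

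The highest shares of low methylation were found where clustering and a CpG-rich neighbour came together. Among members with a neighbour of 30 or more CpGs, the share under 20% was 13.99% with at most 9 CpGs in 200 nucleotides and 68.6% with 15 or more. Where both neighbours had under 20 CpGs, the corresponding shares were 1.85% and 8.67%, and 57.5% of the 2204 isolated and clustered members were over 80%. These are counts over tiles, which are not replicates, and no test was made.

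**Figure D2:**
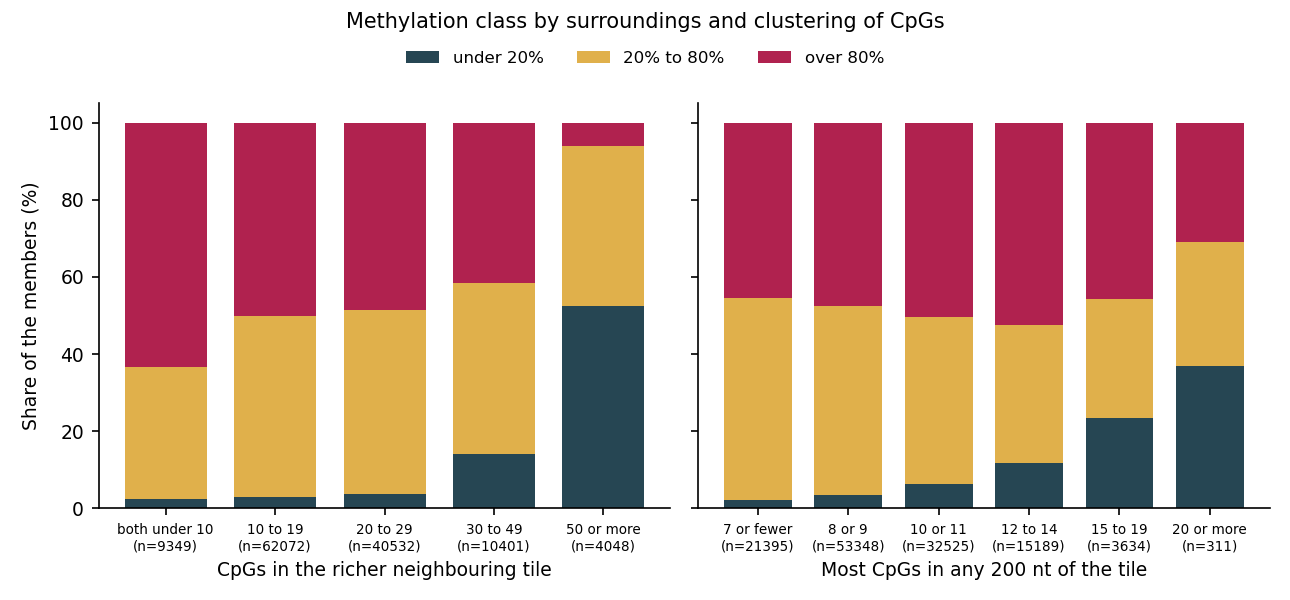
Share of members (%) under 20%, from 20% to 80% and over 80% methylation, by the CpGs of the richer neighbouring tile (left) and by the most CpGs in any 200 nucleotides (right), with the number of members under each bar. The share under 20% is 52.6% beside tiles of 50 or more CpGs and 2.41% where both neighbours hold under 10.

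In members beside a CpG-rich tile, mean methylation was higher farther from the shared border. Each distance pools CpGs of many members, so the course within a single member is not shown. Only CpGs with at least 10 reads in every animal were used here, and each counted equally. In the 3834 members with 1 neighbour of 50 or more CpGs and the other under 30, CpGs within 100 nucleotides of the shared border averaged 7.80% ± 0.37 (SD, n = 6 animals). CpGs from 400 to 500 nucleotides away averaged 27.5% ± 0.79, and those from 900 to 1000 nucleotides away 53.5% ± 1.31. The 6 animals ran together, from 7.44% to 8.49% at the border and from 51.3% to 55.0% at the far end. Beside a neighbour of 30 to 49 CpGs, 7466 members started at 37.1% ± 0.28 and reached 69.1% ± 0.76. These means over part of the CpGs are another measure than the tile means given above.

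**Figure D3:**
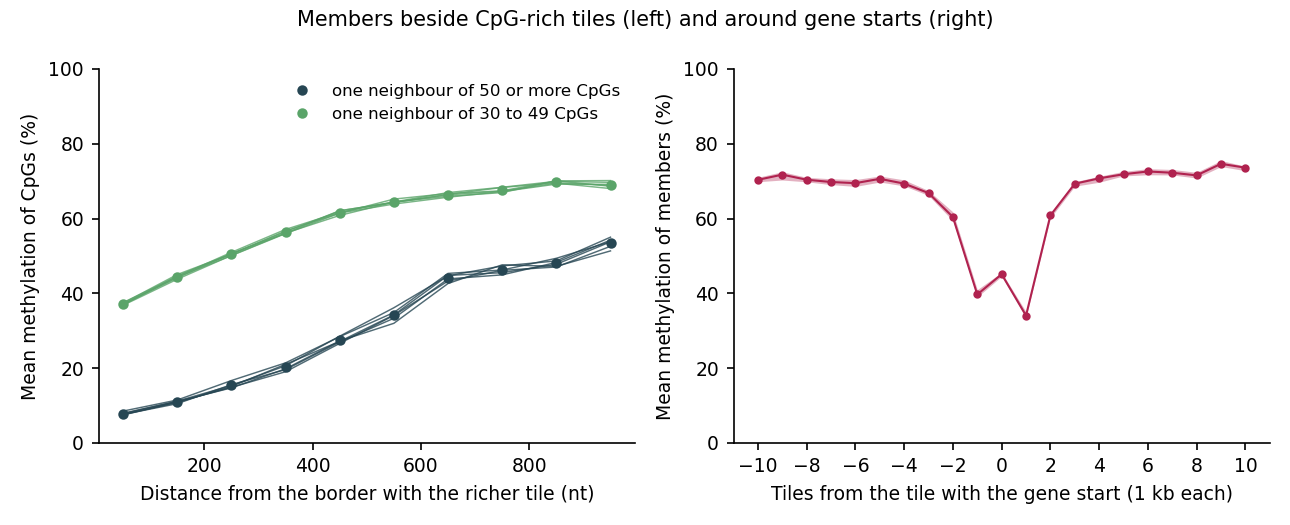
Left, mean methylation of CpGs with at least 10 reads in every animal (%) against distance from the border with the richer tile (nucleotides). There is 1 line for each of the 6 animals, with points for their mean. Right, mean methylation of members (%) against the number of 1 kb tiles from the tile with the nearest placed gene start, negative upstream, with the band from the lowest to the highest animal. Levels climb from 7.80% to 53.5% beside tiles of 50 or more CpGs and are lowest in the tiles next to a gene start, at 34.0% downstream and 39.7% upstream.

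Gene starts were placed by looking up the CpG spacing of RefSeq promoter windows (250 bases before and 50 after the start, at least 8 CpGs) among the listed positions. Of 15380 such windows on chr1 to chr20, 13121 matched at 1 place, and 13076 of these on the chromosome that RefSeq gives, which were used. These windows belong to 11599 genes, so a gene can have several placed starts, and a start named below need not be the gene's main one. They put a start in 1686 members (1.33%), for 1739 genes. Windows with fewer CpGs could not be placed, so starts in CpG-poor sequence are missing from what follows.

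Members with a gene start were divided between the methylation classes more evenly than members elsewhere. Their mean was 45.1%, with animals from 44.5% to 45.6%, and 600 (35.6%) were under 20%, 668 (39.6%) from 20% to 80% and 418 (24.8%) over 80%. In start tiles of 50 or more CpGs, 99.2% were under 20%, in those of 30 to 49 CpGs 85.4%, and in those of 5 to 19 CpGs 15.8%. Members were the density at which a start was intermediate about as often as low. Within them, starts of protein-coding genes had a median of 20.8%, with 523 of 1071 tiles under 20%, and starts of long non-coding RNAs had a median of 70.4%, with 97 of 653 tiles under 20%. With windows of at least 12 CpGs, a limit chosen after seeing the data, 703 members kept a start and 56.3% of them were under 20%, and 16.2% were over 80%.

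Around a start, low methylation extended over a few tiles. Members in the tile just downstream averaged 34.0% ± 0.61 (SD, n = 6 animals), and those just upstream 39.7% ± 0.80. Members that held a start themselves averaged 45.1% ± 0.37. Start tiles of more CpGs are not members and averaged less, 14.5% at 30 to 49 CpGs and 4.42% at 50 or more. The 3 member means are therefore from different sets of starts and do not show a rise at the start. At 2 tiles the means were 60.8% downstream and 60.4% upstream, and at 5 tiles 71.8% and 70.6%. Members over 100 kb from any placed start averaged 73.2%. Even there 1545 members were under 20%. Of the 7098 members under 20%, 600 held a placed start and a further 2210 lay within 5 kb of one.

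Base composition and short motifs of the promoter windows differed with the methylation of the member, as description only. The median GC content was 57.0% for 627 windows in members under 20%, 53.7% for 692 windows in members from 20% to 80% and 51.3% for 433 windows in members over 80%. The GC box GGGCGG was present in 49.8%, 31.4% and 18.01% of these windows, compared with 33.1% of all 33469 RefSeq windows and 60.0% of all placed ones. The TATA box letters TATAAA went the other way, with 7.496%, 9.39% and 16.9%, compared with 14.2% of all windows and 6.63% of placed ones. The letters CCGGAAGT, bound by ETS factors, were in 6.70%, 2.89% and 4.62%, in 3.81% of all windows and in 7.76% of placed ones. The E-box CACGTG was in 6.38%, 8.82% and 10.6%, in 6.42% of all windows and in 10.003% of placed ones. The CRE letters TGACGTCA were in 2.39%, 1.88% and 1.85%, in 1.83% of all windows and in 3.18% of placed ones. The NRF1 letters GCATGCGC were in 4.31%, 1.59% and 4.39%, in 2.47% of all windows and in 5.06% of placed ones. Each motif was searched on both strands, the 6 motifs were counted separately, and a match is not a binding site. In the stretches printed above, TATAAA was found in Tet1 and Tf, GGGCGG in Ddx4, Ntf3 and Vamp8, and CACGTG in Ddx4.

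In all, 20 genes of the lists (iron handling, iron-dependent enzymes, DNA methylation machinery, synaptic plasticity, glia, vessels, imprinted, germline, housekeeping, developmental and chemosensory genes) had their start in a member, beside 124 with a start in a tile of 30 or more CpGs. Only part of each list could be placed in a tile with reads. Of the placed starts, 6 of the 18 myelin genes, 1 of the 15 genes of microglia and blood vessels and 15 of the 24 housekeeping genes, none lay in a member. By methylation, 7 of the 20 were under 20%, 8 from 20% to 80% and 5 over 80%. None of the 20 was called between diets (the test is given below), 2 had an unadjusted p under 0.05 (beside 6.87% of all tiles tested), and the groups did not overlap for 1 gene higher and 1 gene lower in iron deficiency (beside 5.9% and 4.06% of all tiles).

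Of the 32 genes for synaptic plasticity, 8 were placed and 4 had their start in a member, 3 under 20% and 1 from 20% to 80%. Dlg4 (PSD-95, a scaffold of the postsynaptic density) was at 10.9%, 10.2% and 10.2% in iron-sufficient replicates 1 to 3 and at 4.71%, 15.2% and 17.1% in iron-deficient ones. Camk2a, the alpha subunit of a calcium-dependent kinase needed for synaptic plasticity, was at 3.99%, 20.96% and 8.18%, and at 7.80%, 7.80% and 5.64%. Homer1, another postsynaptic scaffold, was at 13.3%, 18.95% and 4.78%, and at 4.04%, 0.0648% and 9.79%. Nrgn (neurogranin, a calmodulin-binding protein of dendrites) was higher, at 21.7%, 30.1% and 14.8%, and at 25.1%, 28.8% and 17.2%. Nrgn averaged 22.9% over the tile and 6.24% in its promoter window. It was at 36.6% over those of its CpGs with at least 10 reads in every animal, which can be a small part of a tile. The diets overlapped for all 4 of these genes.

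Of the 27 genes listed for iron-dependent enzymes, 15 were placed, 13 with a start in tiles of 30 or more CpGs and 2 in members. These 2 were under 20% by the mean of the animals. Tet1 was at 5.03%, 1.85% and 3.597% in iron-sufficient pups and at 1.94%, 16.1% and 3.92% in iron-deficient pups, and 1 animal stood above the other 5. Its mean was 5.41%, and 3.27% without iron-deficient replicate 2. Hif1an, an oxygen- and iron-dependent asparagine hydroxylase that restrains HIF, was at 9.73%, 10.5% and 32.7%, and at 5.74%, 7.44% and 4.98%. Its groups did not overlap, but iron-sufficient replicate 3 carried most of the difference (the mean of the animals was 11.8%, and 7.67% without it), and the quasi-binomial test gave an unadjusted p of 0.0102 (adjusted 0.615).

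Of the 30 genes for iron handling, 16 were placed, 14 with a start in tiles of 30 or more CpGs and 2 in members. Over the whole tile, these 2 were intermediate. Tf, the iron carrier of plasma, was at 42.1%, 61.3% and 9.52% in iron-sufficient pups and at 39.3%, 25.9% and 60.0% in iron-deficient pups. Its SD over the animals was 19.9 percentage points, and the diets overlapped. The 300 bases of its promoter window averaged 16.7%, lower than the tile, and held only 15 reads in 1 library. Tfr2, transferrin receptor 2, a sensor of transferrin-bound iron, was at 39.2%, 43.2% and 34.0%, and at 54.7%, 44.3% and 55.8%. The groups did not overlap, the closest animals lay about 1 point apart, and the test gave an unadjusted p of 0.0609 (adjusted 0.743).

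Of 31 placed starts of germline genes, 6 lay in members, 3 from 20% to 80% and 3 over 80%. Ddx4, with 32 CpGs in its promoter window, was at 91.6%, 100% and 95.4%, and at 93.4%, 87.0% and 92.8%. Its window runs over a tile border, and the member itself has 26 CpGs. Ldhc, the testis lactate dehydrogenase, averaged 85.9%, and Piwil4, a PIWI protein of the germline, 82.1%. Zp3 (an egg coat protein) averaged 64.2%, Nobox (an oocyte homeobox factor) 61.9% and Hormad2 (a meiotic chromosome protein) 39.6%. Over CpGs with at least 10 reads in every animal, Hormad2 was at 17.8%. Of the glial genes, the placed start of Glul (glutamine synthetase) averaged 82.5% and that of Gja1 (connexin 43) 10.8%, 2 genes used by astrocytes. Glul was at 71.9%, 87.9% and 79.2% in iron-sufficient pups and at 88.7%, 87.0% and 80.6% in iron-deficient pups. Among the others, Pax2, a developmental transcription factor silent in most of the forebrain, averaged 4.17% beside a tile of 91 CpGs, and 2.19% without iron-sufficient replicate 2. Slc22a18, a gene of an imprinted cluster, averaged 22.6% (13.3% over CpGs with at least 10 reads in every animal, and 18.7% without iron-deficient replicate 2), Dnmt3l, a catalytically inactive partner of the de novo methyltransferases, 70.3%, and Taar4, a trace amine receptor, 80.6%.

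The least methylated starts averaged under 2% over the 6 animals. Nsun7 averaged 0.766% and Xrcc5 (Ku80, of DNA end joining) 0.767%, followed by Elp5 (of the Elongator complex) at 1.32%, Cdkal1 (a tRNA-modifying enzyme) at 1.53%, Gins1 (of the replication helicase) at 1.65% and LOC108351288 at 1.68%. LOC108351288 was at 6.46% in iron-sufficient replicate 1 and averaged 0.726% without it, and Xrcc5 averaged 0.329% without iron-sufficient replicate 2. Over CpGs with at least 10 reads in every animal, Elp5 was at 3.95%, Xrcc5 at 1.24%, Cdkal1 at 0.926%, Gins1 at 0.726% and Nsun7 at 0%, so their order is not firm. The most methylated were H3f3l1 (a histone H3.3-like gene) at 98.03%, LOC102547111 at 97.8%, LOC134485634 at 97.4%, LOC120096885 at 97.2%, and LOC134479935 and LOC134481802 at 96.9% each. Reads of H3f3l1 may be shared with other histone H3.3 copies, which was not tested.

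The starts closest to 50% depended on which CpGs were counted. Tnf, the cytokine, was at 49.8%, 58.3% and 48.3% in iron-sufficient pups and at 39.7%, 52.0% and 48.7% in iron-deficient pups, with an SD over the animals of 6.04 percentage points. It was at 27.6% over CpGs with at least 10 reads in every animal and at 23.6% in its promoter window. Cfap92, named for cilia and flagella, averaged 50.5% in the tile and 7.69% in its 300-base promoter window. The other starts closest to 50% were C5h1orf167 (50.1%), LOC102546528 (50.04%), LOC102549085 (49.8%) and LOC120102974 (49.8%). LOC120102974 was at 95% over CpGs with at least 10 reads in every animal, and its promoter window held 0 reads in 1 animal. Other starts were chosen for the largest spread between animals. Myog, the muscle transcription factor, was at 72.3%, 3.43% and 69.0%, and at 89.6%, 74.2% and 52.5%, with an SD of 30.2 percentage points. Sp100, a nuclear body protein, had an SD of 27.7, and iron-sufficient replicate 2 was lowest for it as well, at 14%. LOC102546657 (SD 24.6) and LOC120103511 (SD 25.2) were lowest in iron-deficient replicate 2, at 6.63% and 23.1%. RT1-S3, an MHC class I gene of a multigene family whose reads can be shared between copies, had an SD of 24.4 around a mean of 24.99%, which was 16.3% without iron-sufficient replicate 3 and 0% over CpGs with at least 10 reads in every animal. LOC134481193 had an SD of 23.7. For none of these 6 genes did the diets separate.

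The spread between animals was widest at intermediate levels, in members as in other tiles. The classes come from the mean of the same animals on a bounded scale, so a mean near either end allows only a small SD. The median SD over the 6 animals was 5.96 percentage points for members under 20%, 10.03 for members from 20% to 80% and 5.61 for members over 80%, at medians of 753, 608 and 609 reads. In tiles of 10 to 19 CpGs the median SDs were 7.78, 11.8 and 7.21 points in the same order, at medians of 407, 330 and 323 reads. The densities are therefore not compared at equal depth here. An SD over 20 points was found in 1624 members from 20% to 80% (2.80%), in 15 under 20% (0.211%) and in 67 over 80% (0.109%). The 3 largest were on chr14:83078001-83079000 (SD 39.2), on chr4:173782001-173783000 (SD 38.8, described below) and on chr6:88642001-88643000 (SD 37.9). The last was at 0% with 51 reads in iron-sufficient replicate 2 and from 86.8% to 95.3% in the other 5 animals. That of chromosome 14 held 57 reads in each of 2 animals, one at 1.75% and one at 59.6%, so both rest on few reads.

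Members were spread unevenly over the genome. They made up 3.39% of the tiles of chromosome 2 and 16.05% of those of chromosome 12, with 11.6% on chromosome 20. Mean methylation by chromosome ranged from 68.0% on chromosome 10 to 72.9% on chromosome 15. In the 3 Mb before the last listed CpG of each chromosome, 3029 members averaged 66.4%, compared with 71.0% elsewhere. Most members stood alone, with 83025 flanked by no other member, and the longest run was 13. Coverage is given as a description, since the minimum of 50 reads per tile acts on it, and more strictly in tiles of fewer CpGs. The median reads per CpG, relative to the animal's median tile, were 1.07 ± 0.0398 (SD, n = 6) in members, 0.0787 higher than in tiles of 10 to 19 CpGs, a difference that turned to -0.0502 when 200 reads were required in every animal. The difference from tiles of 30 or more CpGs was -0.274, and -0.213 with 200 reads. In 218 members coverage exceeded 10 times the median in some animal. These averaged 71.7%, and the most covered, chr2:156716001-156717000, held between 1367642 and 2802796 reads per animal at 88.3% to 89.9%.

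Members were slightly more methylated in iron-deficient pups, by less than 1 percentage point. The mean over all members was 70.4%, 70.2% and 70.7% in iron-sufficient replicates 1 to 3 and 70.9%, 71.5% and 71.4% in iron-deficient ones. Every iron-deficient animal lay above every iron-sufficient one. The difference was 0.846 points, between 70.4% ± 0.25 and 71.3% ± 0.30 (SD, n = 3), with an exact permutation p of 0.1 (two-sided), the smallest that this test gives with 3 against 3, so it could not reach 0.05. With all reads of the members pooled it was 0.828 and the groups overlapped (exact p = 0.2). The share of members over 80% was 47.5% ± 0.90 and 49.3% ± 0.51, that from 20% to 80% 46.0% ± 0.63 and 44.5% ± 0.80, and that under 20% 6.52% ± 0.31 and 6.18% ± 0.43 (n = 3), with exact permutation p of 0.1, 0.1 and 0.5. With classes at 10% and 90% the groups overlapped in the shares above and between the limits (exact p = 0.5 for both), as they did with classes at 30% and 70% (exact p = 0.2 for both). The difference in the share under 20%, -0.335 points, was -0.0914 without iron-deficient replicate 3 and -0.160 without iron-sufficient replicate 2. Adjusted over the 7 group tests, the lowest p was 0.14. The median difference of single members was 0.773 points, beside 0.782 over all 1359223 tiles tested.

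**Figure D4:**
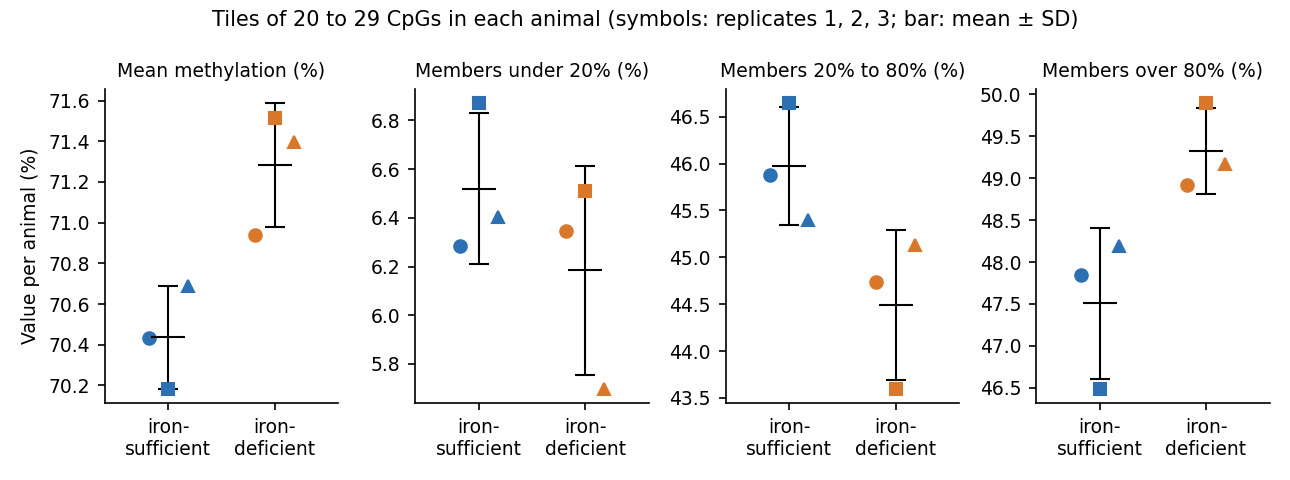
Mean methylation of the members and their shares under 20%, from 20% to 80% and over 80% (y axes in %, not starting at 0), with each animal as a symbol and the mean ± SD of 3 animals as a bar. The iron-deficient animals lie above the iron-sufficient ones in mean methylation and in the share over 80%, and the groups overlap in the share under 20%.

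Single members separated by diet about as often as other tiles. Tiles of 5 or more CpGs were compared by a quasi-binomial logistic model with moderated dispersion and Benjamini-Hochberg adjustment over all of them. An unadjusted p under 0.05 was found for 9394 members (7.43%), beside 6.87% of all tiles tested, and 61.2% of these members were higher in iron deficiency. That split was 65.2% by limma and 52.8% by limma after centring the samples. Every iron-deficient animal was above every iron-sufficient one in 7755 members (6.14%), beside 5.9% of all tiles, and below in 4895 (3.87%), beside 4.06%. At an adjusted p of at most 0.05, 3 members were called, 0.00237% of them beside 0.000883% of all tiles (12 calls). All 3 were higher in iron deficiency and from 20% to 80% by the mean of the animals. edgeR and limma called 0 members, with 4062 (3.21%) and 4973 (3.93%) at an unadjusted p under 0.05, beside 2.78% and 4.09% of all tiles. Leaving out 1 animal gave 103 member calls (of 412 over all tiles tested) without iron-deficient replicate 1, 21 (of 93) without iron-deficient replicate 3, 6 (of 23) without iron-deficient replicate 2, 25 (of 134) without iron-sufficient replicate 3, 11 (of 30) without iron-sufficient replicate 1 and 2 (of 11) without iron-sufficient replicate 2. The weight of the common dispersion (prior degrees of freedom) was refitted each time. It was infinite in the fits with 103 and 25 calls, 1766 in that with 21, 80.8 in that with 2, and 85.6 with all animals. An infinite weight ignores a tile's own spread between animals, so these counts do not rank the animals.

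The member with the lowest p, chr4:173782001-173783000, has 29 CpGs and holds a window that the study drew at Gucy2c, which encodes the guanylate cyclase C receptor. It was at 22.2%, 21.1% and 11.6% in iron-sufficient pups and at 92.5%, 89.1% and 84.5% in iron-deficient pups, the largest difference without overlap of all members (70.4 points, quasi-binomial adjusted p = 5.45e-05). Its coverage differed as well. It held 320, 246 and 207 reads in iron-sufficient and 2012, 2627 and 1424 reads in iron-deficient pups. Scaled to each animal's median tile, this ratio of 6.77 was the highest of the 126402 members, of which 3 reached 4. The part of this coverage in the methylation difference was not tested. With each animal left out in turn the difference stayed between 67.0 and 72.5 points and the call was kept (adjusted p from 6.06e-07 to 0.0241). The call was lost by edgeR (adjusted p = 1), by the 3 limma settings (0.944 to 0.954) and with a replicate block (0.208).

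The member at chr11:69580001-69581000, with 26 CpGs, was at 8.51%, 19.8% and 4.38% in iron-sufficient pups and at 61.1%, 41.5% and 60.0% in iron-deficient pups (43.3 points, adjusted p = 0.000796). Here too the iron-deficient animals had more reads, 1725, 1714 and 1737, compared with 787, 541 and 914. Its nearest placed gene start was 27286 nucleotides away. The member at chr15:21993001-21994000, also with 26 CpGs, was at 27.4%, 9.23% and 21.5%, and at 57.5%, 74.2% and 42.3% (38.6 points, adjusted p = 0.00203). Reads there overlapped between the groups, from 642 to 1549 and from 723 to 1521. This call was lost without iron-sufficient replicate 2 (adjusted p = 0.0561) and without iron-deficient replicate 2 (0.179). When all tested tiles needed at least 200 reads in every animal, it and the call on chromosome 11 were lost (0.103 and 0.0858). Both tiles have more reads than that in every animal, so their own data and differences were unchanged. The dispersions were refitted over 456435 tiles, with 27.5 prior degrees of freedom in place of 85.6.

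The other large differences without overlap were not called. Higher in iron deficiency were chr14:82173001-82174000, at 46.2%, 4.17% and 33.1% against 63.1%, 94.6% and 62.3%, and chr9:108631001-108632000, at 21.2%, 20.2% and 4.90% against 87.6%, 38.7% and 55.8%. Lower were chr3:6846001-6847000, at 44.3%, 68.9% and 86.1% against 29.98%, 23.6% and 15.9%, chr10:87310001-87311000, at 56.2%, 62.5% and 83.2% against 13.9%, 34.2% and 30.7%, and chr14:84850001-84851000, at 68.1%, 83.0% and 90.8% against 40.6%, 26.5% and 53.9%. Their adjusted p ran from 0.0752 to 0.209 in the quasi-binomial model. Differences over 30 points in either direction were found in 168 members, and over 20 points in 1.76% of the members, beside 4.996% of all tiles tested. Sparser tiles, which are among all those tested, had fewer reads, so these shares are not at equal depth. Over CpGs with at least 10 reads in every animal, the difference on chromosome 10 was -10.4 points and that on chromosome 3 was -22.5. None of these 5 members held a placed gene start. A window that the study drew near Pck1, the gluconeogenic enzyme PEPCK, spans 2 adjacent members. That at chr3:163998001-163999000 was at 78.5%, 72.3% and 81.3%, and at 81.5%, 70.2% and 63.1%. That at chr3:163999001-164000000 was at 46.5%, 58.6% and 23.2%, and at 40.8%, 10.5% and 44.5%. Over these whole tiles the diets overlapped (adjusted p = 0.932 and 0.816).

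No gene start in a member was called between diets. An unadjusted p under 0.05 was found for 159 of the 1686 start tiles (9.43%), beside the 6.87% of all tiles. This excess was not particular to starts in members. The share was 9.02% in start tiles of 5 to 19 CpGs, 10.2% at 30 to 49 and 11.1% at 50 or more. Among all members it was 10.05% under 20% methylation, 10.1% from 20% to 80% and 4.60% over 80%. Starts were not compared with other members within these classes. In members, the diets did not overlap in 107 start tiles (6.35%) higher and 72 (4.27%) lower in iron deficiency. These shares were close to the 5.9% and 4.06% of all tiles. The largest decrease was at Vamp8, a SNARE protein of endosomes, where the tile was at 46.9%, 59.2% and 47.2% in iron-sufficient pups and at 30.6%, 13.9% and 9.03% in iron-deficient pups (adjusted p = 0.357). In the promoter window of the sequence printed above the levels were 21.6%, 76.4% and 49.3% against 1.10%, 0.287% and 1.23%. LOC134486592 has its start in the same tile, and its own window did not separate by diet, with 0% to 28.0% against 0% to 7.69%. Adgrg3, an adhesion G protein-coupled receptor, was at 78.7%, 78.6% and 83.1% against 72.2%, 37.9% and 58.0%, and LOC134485203 at 20.6%, 50.5% and 41.6% against 7.39%, 12.3% and 19.8%. The largest increase was at Cep97, a centrosomal protein, at 6.48%, 4.58% and 11.7% against 46.9%, 40.7% and 14.3% (adjusted p = 0.229). LOC120098975 was at 34.0%, 26.0% and 21.6% against 44.2%, 57.0% and 56.2%. Ntf3, the neurotrophin NT-3, was at 30.8%, 10.01% and 11.98% against 34.3%, 58.3% and 34.0% (adjusted p = 0.280). In its promoter window the levels were 1.89%, 6.66% and 13.1% against 0%, 0.441% and 30.1%, where the diets overlapped. The window of LOC120098975 was at 38.1%, 47.9% and 40.7% against 37.7%, 31.5% and 40.4%, without the increase of its tile. The diets overlapped there and in the windows of Adgrg3 and LOC134485203, while in those of Vamp8 and Cep97 they did not.

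**Figure D5:**
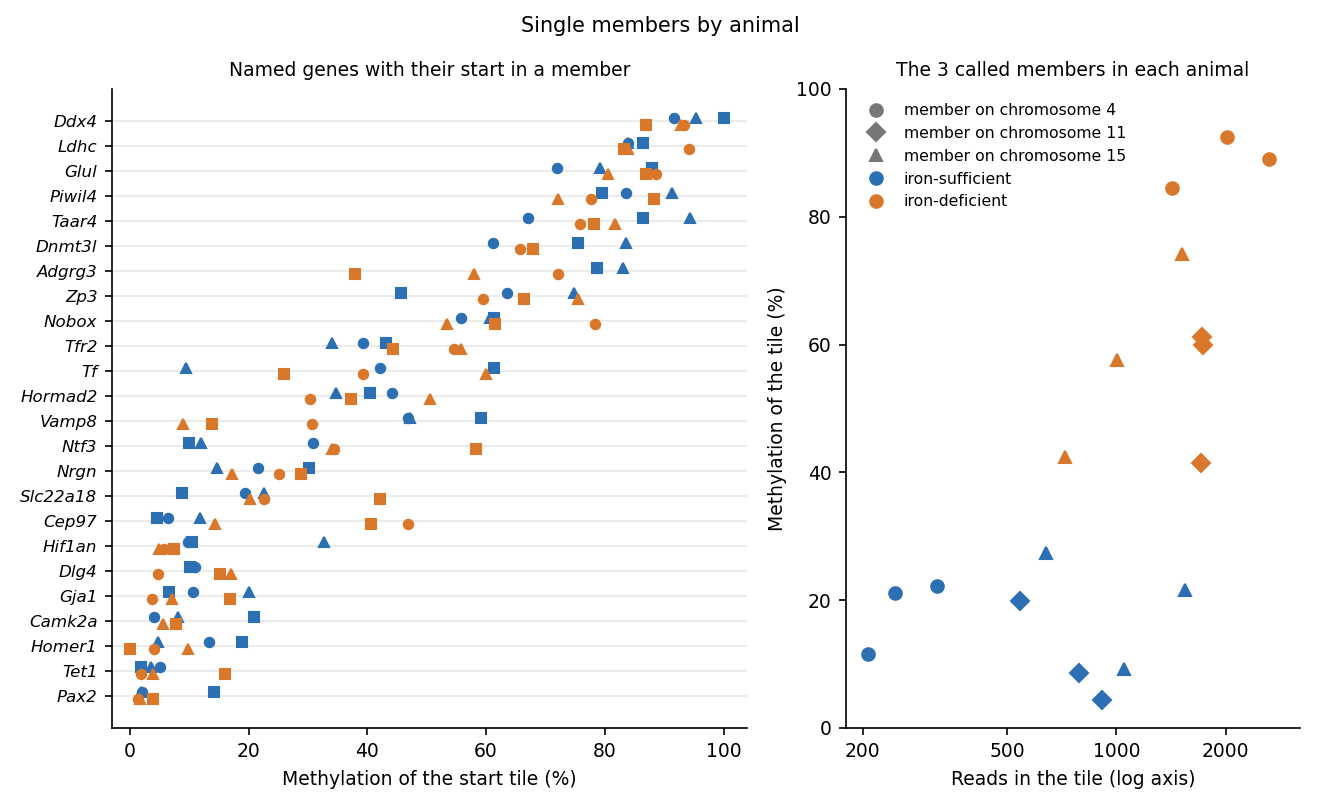
Left, methylation (%) of the start tile of named genes in each animal, iron-sufficient in blue and iron-deficient in orange, with circles, squares and triangles for replicates 1 to 3. Right, methylation (%) against reads (log axis) of the 3 called members in each animal, with the shape marking the chromosome, where the iron-deficient animals are higher and, on chromosomes 4 and 11, hold more reads.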

How the data were processed

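Whole-genome bisulfite sequencing libraries (NEBNext reagents, Imprint conversion) of 3 iron-sufficient and 3 iron-deficient rat hippocampi were sequenced on an Illumina HiSeq. The authors trimmed adapters, aligned with BS Seeker to rn4, used read 1 where mates overlapped and merged both strands of a CpG. No source used here states whether duplicate reads were removed. The deposited files give for each CpG a methylation fraction and a count of reads, and methylated reads (the product) came out whole. Reads summed over CpGs ranged from 432692526 to 780127386, with a median of 474 to 815 per member in single animals. A sequencing read counts at every CpG it covers, so these are not numbers of sequencing reads.

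CpGs were summed in tiles of 1 kb. Levels and shares were compared over animals by exact permutation tests. Tiles with at least 5 CpGs and 50 reads in every animal were fitted by a quasi-binomial logistic model, with dispersions moderated by limma (3.58.1, R 4.3.3) and Benjamini-Hochberg adjustment over 1359223 tiles. The code was tested on simulated data, which does not show that its p-values are exact here: 6.87% of all tiles had an unadjusted p under 0.05, beside 2.78% by edgeR and 4.09% by limma. Alternatives were edgeR (4.0.16), limma on log2 odds computed from the deposited counts (pseudocounts 1 and 0.5), a replicate block, 200 reads and leaving out each animal. Named were the called members, those with the 3 largest differences without overlap each way or the 3 largest SDs, members under windows the study drew, list genes, and starts with the highest, lowest, closest to 50% and most variable levels (6 each) or the 3 largest differences each way. Promoters were placed by CpG spacing. The requirement of the same chromosome, windows of 12 CpGs, and the alternatives to the counts without overlap were chosen after seeing the data. The members and gene lists were chosen with earlier results of these data known. X, Y and unplaced sequence were not used here.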

Additional observations from a re-analysis of the deposited data

How the results depend on the processing

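The count of members called between diets, 3 in the quasi-binomial model, was 0 by edgeR, 0 by limma with a pseudocount of 1, 0 after centring the samples, 0 with a pseudocount of 0.5 and 1 with 200 reads in every animal. Members with an unadjusted p under 0.05, 9394 in that model, numbered 4062 by edgeR (3.21%, beside 2.78% of all tiles). By the same 3 limma settings they numbered 4973, 4857 and 4680 (3.93%, 3.84% and 3.70%, beside 4.09%, 4.06% and 3.83% of all tiles). Leaving out 1 animal gave 2 (without iron-sufficient replicate 2) to 103 calls (without iron-deficient replicate 1), beside 11 to 412 over all tiles. The weight of the common dispersion differed between these fits, as given above. Members at an unadjusted p under 0.05 numbered 7570 to 11320, beside 5.32% to 8.12% of all tiles. Members without overlap numbered 13692 to 15289 higher in iron deficiency and 9538 to 11841 lower. Fewer animals per group make separation more frequent in any tile. The share over all tiles was not counted for these settings, so the counts without overlap say nothing particular about members. Leaving out 1 animal left the difference in mean methylation from tiles of 10 to 19 CpGs between -5.09 and -5.03, that from tiles of 30 or more between 35.04 and 35.19 (47.7 with all reads pooled), and that between diets between 0.721 and 1.02. With 5 animals the sign-flip test cannot go below 0.063. The relative reads per CpG, 0.0787 above tiles of 10 to 19 CpGs, differed by -0.0502 with 200 reads in every animal, and the read minimum itself acts on this measure. Counting only CpGs listed in all 6 files and applying the rule to that count gave 30029 members, which need not be members by the main count.

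With the replicate number as a replicate block, 0 members were called and 7133 (5.64%) had an unadjusted p under 0.05, beside 5.59% of all tiles. The difference in mean methylation was 0.846 (exact sign-flip p = 0.25 over 3 pairs, the smallest possible). Deviations of same-numbered samples correlated at 0.0057, 0.0032 and 0.0019, under the limit of 0.1, and all 6 samples correlated best with their own number. These small values cannot tell whether same-numbered samples shared a litter or a batch.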
